A study of Danio rerio with 6 samples.

Results

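The subject is the branch of sterol synthesis that runs from squalene to cholesterol, measured as messenger RNA in zebrafish liver. The members are the 9 enzyme genes sqlea, lss, cyp51, msmo1, nsdhl, hsd17b7, ebp, sc5d and dhcr7, chosen by symbol from a table of 30954 named genes. All 9 were found in the table and all 9 passed the filter on low counts, as did 12889 genes in all. Symbols alone chose the members, but earlier results of these data were known when they were chosen.

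RNA sequencing was done on total RNA from liver. The mutant group holds 3 libraries, numbered 1 to 3, from fish labelled as scd knock out, made with CRISPR-Cas9, and the WT group holds 3 libraries, also numbered 1 to 3. Both groups were kept in water at 28 °C. The edited allele, the number of founder lines, sex, age, feeding state and whether a library came from 1 fish or a pool are not stated in the labels. P-values therefore measure the spread between these libraries, which may be technical in part. The study set mutant against WT liver to see what follows for its transcripts when fish lack scd, the gene of the desaturase that makes monounsaturated fatty acyl-CoA.

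Cholesterol is built from acetyl-CoA through mevalonate to squalene, and the enzymes of the sterol branch then turn squalene into the closed ring system and trim it. The genes of this branch are known targets of SREBP2 in mammals, a membrane-bound transcription factor that is released to the nucleus when sterol in the endoplasmic reticulum is low. The liver is a main site of this pathway, and it uses the product for lipoproteins and bile salts. Several of the enzymes work with molecular oxygen and take electrons from P450 reductase or cytochrome b5. All 9 genes matched RefSeq symbols of assembly GRCz12tu, where they lie on 9 different chromosomes and 0 pairs are next to each other in gene order.

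Total counts per library lay between 22736924 and 26021730. The level of scd was 693, 111 and 56.7 counts per 1e6 counts (CPM) in mutant libraries 1 to 3, against 30.3, 18.1 and 431 CPM in WT libraries 1 to 3. Its log2 fold change was 0.84 ± 1.44 (SE, edgeR quasi-likelihood test, adjusted p = 0.786), so the transcript does not check the labels, and the mutant libraries are named as labelled. Markers fixed for liver were present in every library: the 14 hepatocyte genes, all of which passed the filter, summed to between 44117 and 101487 CPM in mutant and between 70987 and 80500 CPM in WT libraries. The libraries differed in other ways. Vitellogenin, the yolk protein of egg-laying females, took 57.3%, 57.3% and 0.0433% of counts in mutant libraries 1 to 3, against 44.1% to 51.0% in WT libraries. The trimmed mean of M-values (TMM) gave scaling factors of 0.632, 1.07 and 2.97 in mutant libraries 1 to 3, against 0.718 to 0.926 in WT libraries. The summed oocyte list stood at 419 CPM in mutant library 1 and at 254 and 314 CPM in WT libraries 1 and 2, against 0.271 to 3.15 CPM in the other 3 libraries. The summed erythrocyte list stood at 2280 CPM in mutant library 3 and between 173 and 351 CPM in the other 5 libraries. The exocrine pancreas list was at 235, 3144 and 2872.5 CPM in WT libraries 1 to 3, and between 568 and 862 CPM in mutants. The macrophage list was at 215 CPM in mutant library 3 and 110 CPM in WT library 3, and between 33.8 and 47.0 CPM elsewhere. Its genes did not all move together. In mutant library 3, lgmn (150 CPM), marco (37.8), c1qa (10.2) and mfap4 (3.47) stood above all other libraries. There mpeg1.1 (10.3 CPM) was below WT library 3 (14.9), and csf1ra (3.54 CPM) was below all WT libraries (4.10 to 5.95). The cholangiocyte list was at 1107 CPM in mutant library 3 and between 340 and 581 CPM elsewhere, but its genes did not move together. In mutant library 3 the sum was mainly anxa4 (651 CPM) and krt18a.1 (445 CPM). There epcam (7.33 CPM) and sox9b (3.91 CPM) lay below all WT libraries, at 20.9 to 66.3 and 4.47 to 7.03 CPM, and cftr was at 0. The part of these lists in the sterol branch values was not tested.

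All 9 members stood higher in every mutant library than in any WT library. Fitted over all genes, their log2 fold changes lay between 2.66 for nsdhl and 8.32 for sqlea, with a median of 4.22, where the median of all genes tested was 0.04. None of the 9 passed the threshold of an adjusted p under 0.05 in the main fit. That fit was edgeR's quasi-likelihood test with TMM and the filter on low counts, in all 6 libraries. In that test 0 of 9 members were called higher, beside 0.116% of all genes. At an unadjusted p under 0.05, 9 of 9 were higher, beside 10.8% of all genes. DESeq2's Wald test called 9 of 9 higher, beside 4.1% of all genes, and limma-voom called 0 of 9, beside 0.0776%. CPM of the groups did not overlap, with the mutants above, for 9 of 9 members, beside 15.1% of all genes. In bulk liver, more cells of a type and more RNA per cell cannot be told apart.

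**Figure D1:**
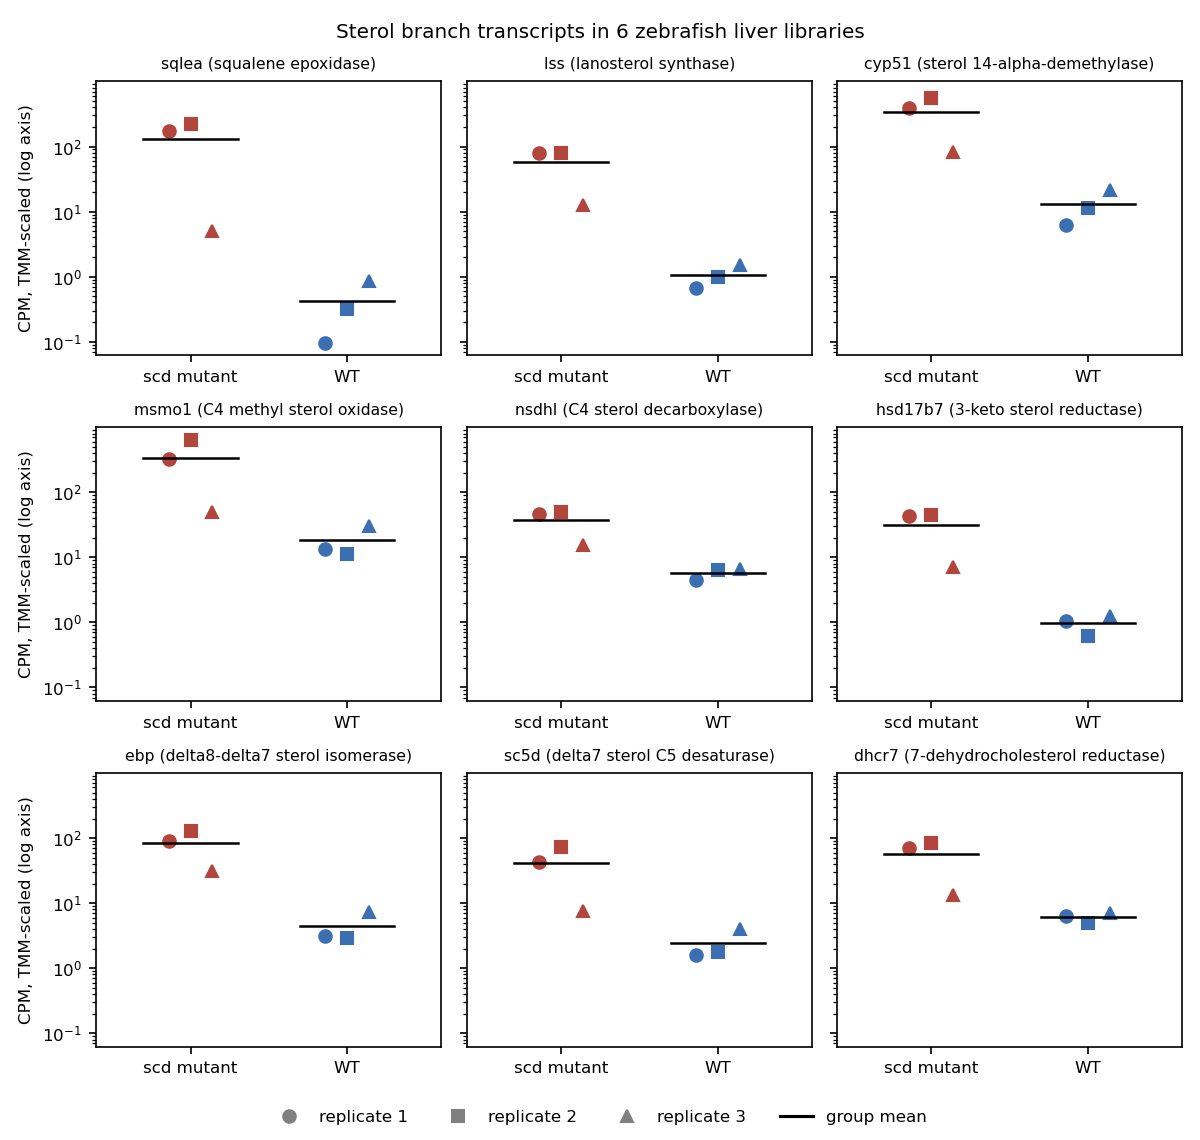
Level of each sterol branch transcript (CPM with TMM scaling, log axis) in the 3 mutant and 3 WT libraries; each point is a library, its shape the replicate number, and the line is the group mean. Mutant libraries lie above all WT libraries in each panel, and mutant library 3 is the lowest of the mutants, at 4.98 CPM for sqlea against 170.4 and 222 CPM in mutant libraries 1 and 2.

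The first step of the branch is squalene epoxidation by the product of sqlea, an oxygen-dependent and rate-controlling reaction in mammals. The level of sqlea was 170.4, 222 and 4.98 CPM in mutant libraries 1 to 3, against 0.0960, 0.314 and 0.843 CPM in WT libraries 1 to 3. The WT values rest on 2, 6 and 15 counts, and their exact 95% Poisson intervals run from 0.0116 to 0.347, from 0.115 to 0.684 and from 0.472 to 1.39 CPM. That of mutant library 3 runs from 4.47 to 5.53 CPM, above all of them. These intervals cover counting error only. Of the members, sqlea had the highest log2 fold change, 8.32 ± 1.68 (SE, edgeR adjusted p = 0.0943). It also had the widest spread, with mutant libraries differing by up to 44.7-fold and WT libraries by up to 8.78-fold. The fitted fold was 319 in all 6 libraries, 637 without WT library 3 and 208 without mutant library 2. The paralogue sqleb had 1 count in mutant library 3 and 0 counts in the other 5 libraries, so its level is at the limit of detection at this depth.

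Lanosterol synthase, encoded by lss, closes the epoxide into the first sterol. Its transcript stood at 79.9, 80.4 and 12.7 CPM in mutant libraries, against 0.672, 0.995 and 1.52 CPM in WT libraries. Mutant libraries 1 and 2 were nearly equal, and mutant library 3, at 8.35 times the highest WT library, was further from the WT range than for any other member. The log2 fold change was 5.76 ± 0.83 (SE, edgeR adjusted p = 0.0593), and the adjusted p was the lowest of the 9. The next enzyme, the P450 cyp51, removes a methyl group from the ring system of lanosterol. Its level was 388, 549.6 and 81.2 CPM in mutant libraries, against 6.19, 11.3 and 21.5 CPM in WT libraries. The groups did not overlap, and the log2 fold change was 4.71 ± 0.85 (edgeR adjusted p = 0.0728).

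The enzymes msmo1, nsdhl and hsd17b7 work in turn to remove the pair of methyl groups at the fourth ring carbon. The oxidase msmo1 stood at 320.1, 643 and 49.6 CPM in mutant libraries, against 13.2, 11.3 and 30.2 CPM in WT libraries. Mutant library 3 came closest to the WT range here, at 1.64 times the highest WT library. The log2 fold change of msmo1 was 4.21 ± 0.96 (SE, edgeR adjusted p = 0.105), and its fitted fold of 18.5 was 9.99 without mutant library 2. The decarboxylating dehydrogenase nsdhl stood at 46.3, 49.4 and 15.2 CPM in mutant libraries, against 4.56, 6.29 and 6.69 CPM in WT libraries. It had the lowest log2 fold change of the members, 2.66 ± 0.48, with an edgeR adjusted p = 0.0711, and the tightest mutant group, with libraries that differed by up to 3.25-fold. The keto-reductase hsd17b7 stood at 43.1, 44.7 and 7.22 CPM in mutant libraries, against 1.06, 0.629 and 1.24 CPM in WT libraries. Its log2 fold change was 5.02 ± 0.77 (edgeR adjusted p = 0.0654), the third highest of the members.

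The last members act on the double bonds of the ring system. The isomerase ebp stood at 91.2, 130.0 and 30.7 CPM in mutant libraries, against 3.17, 2.93 and 7.42 CPM in WT libraries. Its log2 fold change was 4.22 ± 0.67 (SE, edgeR adjusted p = 0.0654), the median of the members. The desaturase sc5d stood at 42.9, 74.0 and 7.59 CPM in mutant libraries, against 1.58, 1.78 and 3.93 CPM in WT libraries. Its log2 fold change was 4.09 ± 0.88 (edgeR adjusted p = 0.1003), and its fitted fold of 17.1 was 10.2 without mutant library 2. The reductase dhcr7, which makes cholesterol from its immediate precursor in one order of the last reactions, stood at 70.2, 84.6 and 13.2 CPM in mutant libraries, against 6.43, 5.03 and 7.08 CPM in WT libraries. Its WT libraries differed by up to 1.41-fold, the narrowest WT range of the members, and its log2 fold change was 3.18 ± 0.66 (edgeR adjusted p = 0.0911).

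The libraries kept nearly the same order for all members. Under TMM, mutant library 2 was the highest for 9 of 9 members and mutant library 3 the lowest mutant for 9 of 9, and WT library 3 was the highest WT library for 9 of 9. As log2 CPM against the WT mean, the median over the members was 4.45, 5.28 and 2.81 in mutant libraries 1 to 3, against -0.37, -0.28 and 0.80 in WT libraries 1 to 3. The position of mutant library 3, which lacked vitellogenin, moved with the scaling. With total counts as the library size, the median was 4.11, 5.70 and 4.69 in mutant libraries 1 to 3, against -0.15, -0.35 and 0.64 in WT libraries. The median of all genes then also moved, to 1.91 in mutant library 3. Mutant library 3 was the lowest mutant for 7 of 9 members with total counts, and WT library 3 the highest WT library for 7 of 9. With either scaling, mutant library 3 lay above the highest WT library for 9 of 9, as it must where the groups do not overlap. The share of all genes with mutant library 3 above every WT library, or with the same library order, was not counted. The CPM of total counts did not overlap, with the mutants above, for 9 of 9 members, beside 11.6% of all genes.

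**Figure D2:**
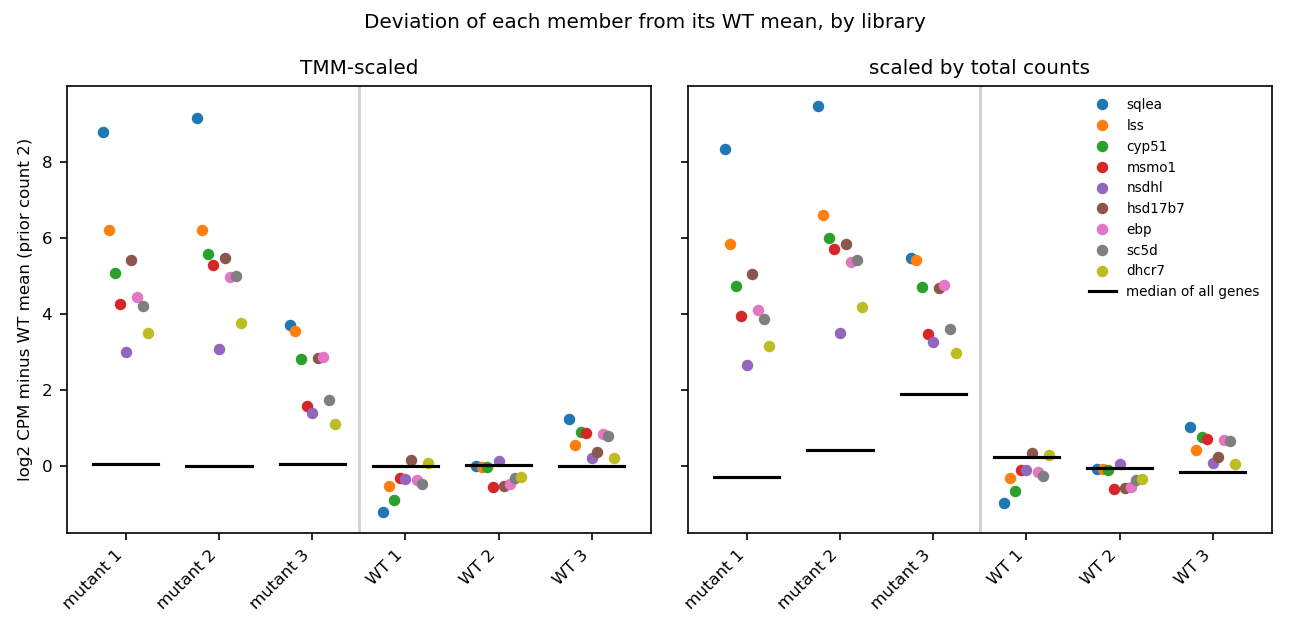
Deviation of each member from its WT mean, as log2 CPM with a prior count of 2, in each library under TMM (left) and with total counts (right); colours mark the members and black bars the median of all genes. Mutant library 3 stands at a median of 2.81 over the members under TMM and 4.69 with total counts, where the median of all genes is 1.91.

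The number of calls changed with mutant library 3, the scaling, the filter and the test, while the direction did not. Without mutant library 3, edgeR called 5 of 9 members higher, beside 0.0921% of all genes. These were sqlea (8.86 ± 0.83), lss (6.22 ± 0.39), nsdhl (3.02 ± 0.25), hsd17b7 (5.47 ± 0.35) and dhcr7 (3.63 ± 0.26), as log2 fold changes with SE. The other members, cyp51, msmo1, ebp and sc5d, had edgeR adjusted p between 0.0504 and 0.0559 and log2 fold changes between 4.57 and 5.15. With total counts in all 6 libraries, 9 of 9 rose, beside 3.06% of all genes, where the median of all genes was 0.98 and that of the members 4.77. With total counts and without mutant library 3, 9 of 9 rose, beside 0.591% of all genes, with a median of 4.97 where that of all genes was 0.06. With the oocyte list as a covariate and without mutant library 3, 9 of 9 rose, beside 0.407% of all genes, and the median was 4.54. With the covariate in all 6 libraries, 0 of 9 were called, beside 0.155% of all genes. In all 6 libraries with TMM but no filter beyond 1 count, 5 of 9 were called higher, beside 0.406% of all genes, and with upper-quartile factors 1 of 9, lss, beside 0.14% of all genes. With DESeq2 size factors edgeR called 0 of 9, beside 0.116% of all genes. It also called 0 of 9, beside 0.116%, with library sizes that left out the vitellogenin, exocrine pancreas, erythrocyte and oocyte lists.

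**Figure D3:**
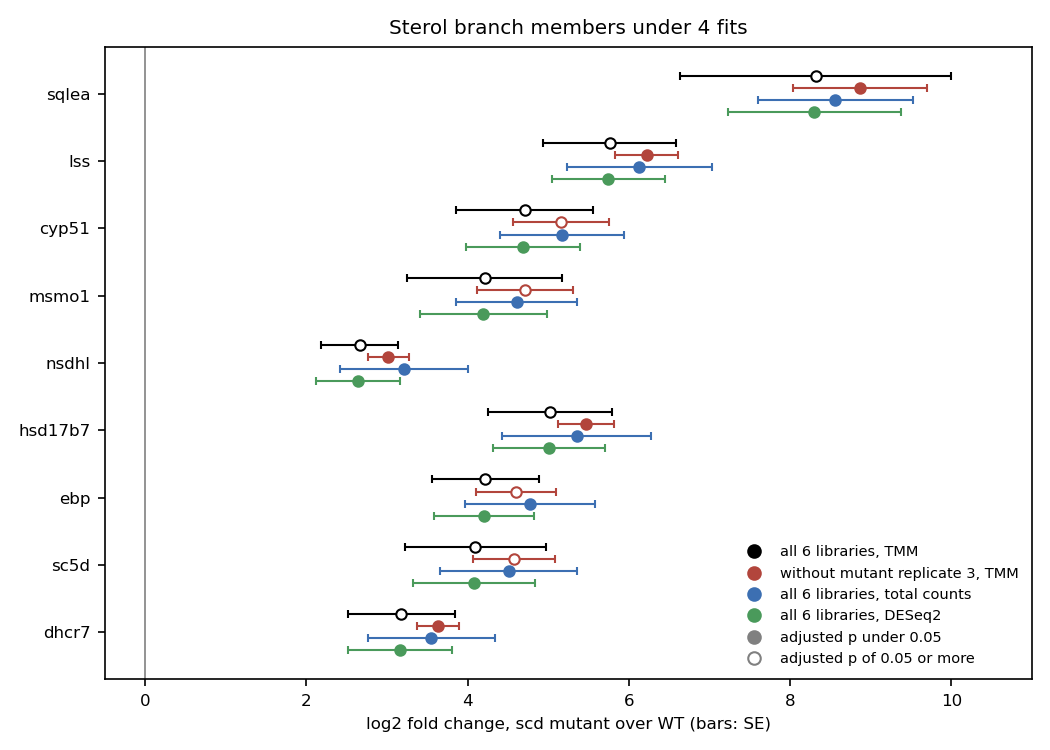
Log2 fold change of each member, mutant over WT, with its SE, under 4 fits. The SE of the DESeq2 fit is the one DESeq2 reports and is computed otherwise than that of the edgeR fits. Filled points have an adjusted p under 0.05. No point of the fit to all 6 libraries with TMM is filled, 5 of 9 are filled without mutant library 3, and 9 of 9 with total counts or with DESeq2. With total counts the SE is larger than in the TMM fit for lss, nsdhl, hsd17b7, ebp and dhcr7, so a filled point does not stand for a smaller SE.

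The summed oocyte list lay above a limit of 50 CPM in mutant library 1 and WT libraries 1 and 2, and below it elsewhere. The members were compared within each kind of library as CPM under TMM. In the libraries above the limit, mutant library 1 exceeded the mean of the WT libraries by a median of 4.90 on the log2 scale. The values ran from 3.11 (nsdhl) to 9.94 (sqlea). In the libraries below the limit, mutant library 2 exceeded WT library 3 by between 2.88 (nsdhl) and 8.04 (sqlea), with a median of 4.41. Mutant library 3 exceeded WT library 3 by between 0.72 (msmo1) and 3.06 (lss), with a median of 1.91. All 9 members were higher in the mutant in each of these comparisons, which have 1 or 2 libraries a side and no test. This follows from every mutant library standing above every WT library under TMM, so the split adds no evidence on direction. Under TMM, WT library 3 itself stood above WT libraries 1 and 2 for 9 of 9 members, by a median of 1.23 on the log2 scale, from 0.32 for dhcr7 to 2.28 for sqlea.

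The 5 genes of the enterocyte list summed to between 14.1 and 32.5 CPM in mutant libraries, against 79.4 to 144.6 CPM in WT libraries, but its genes did not move together. None of the 5 was at 0 in every library, and 3 passed the filter, with a median log2 fold change of 0.77. The lower sum was that of fabp2, at 16.7, 8.52 and 7.84 CPM in mutant libraries, against 76.3, 143 and 115 CPM in WT libraries, the 1 gene of the list called lower by edgeR (adjusted p = 0.0440), beside 0.124% of all genes. The apolipoprotein gene apoa4a stood at 0.919, 3.21 and 18.3 CPM in mutant libraries, against 0.192, 0.0524 and 0.112 CPM in WT libraries, and was not called (log2 fold change 5.92, edgeR adjusted p = 0.105). The erythrocyte list, of which 9 of 10 genes in the table passed the filter, was high in mutant library 3 alone. The part of either list in the sterol branch values was not tested.

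The make-up of the branch is a measure that does not depend on how libraries are scaled. It restates the unequal fold changes of the members and is not a further result. Counts of the 9 members summed to 20430, 45636 and 15587 in mutant libraries 1 to 3, against 770, 775 and 1431 in WT libraries 1 to 3. Of these, sqlea made up 13.6% (95% exact Clopper-Pearson interval 13.1 to 14.1), 11.8% (11.5 to 12.1) and 2.24% (2.01 to 2.48) in mutant libraries, against 0.260% (0.0315 to 0.935), 0.774% (0.285 to 1.68) and 1.05% (0.588 to 1.72) in WT libraries. The share of sqlea was thus higher in each mutant library, and that of mutant library 3 was closer to WT than to the other mutants. The share of lss was 5.46% ± 1.07 in mutant and 2.05% ± 0.348 in WT libraries (SD, n = 3 each). The share of dhcr7 was 5.35% ± 0.748 in mutant and 12.9% ± 4.32 in WT libraries, and that of nsdhl was 4.39% ± 2.19 in mutant and 12.0% ± 3.59 in WT libraries. In all, 3 members (sqlea, lss and cyp51) had a higher share in every mutant library than in any WT library, 3 (nsdhl, sc5d and dhcr7) a lower one, and 3 overlapped. A share of this sum is defined for the members only, so no share over all genes stands beside these counts. The exact intervals of the closest mutant and WT libraries were apart for sqlea, lss and dhcr7. They overlapped for cyp51 (28.8 to 29.7 in mutant library 2, against 24.7 to 31.2 in WT library 2). They also did for nsdhl (6.45 to 7.25 in mutant library 3, against 6.94 to 9.87 in WT library 3). The same held for sc5d (3.77 to 4.12 in mutant library 2, against 2.97 to 5.97 in WT library 1). For these members the intervals do not set the closest libraries apart, which does not show that the gap is counting error alone. The lowest and highest libraries were apart for cyp51 (14.2 to 19.6 in WT library 1, against 35.8 to 37.3 in mutant library 3). They were also apart for nsdhl (2.48 to 2.78 in mutant library 2, against 13.0 to 18.2 in WT library 2). For sc5d they were 3.13 to 3.71 in mutant library 3, against 3.83 to 6.14 in WT library 3. These pairs were picked as the farthest apart, and the intervals cover counting error only. Their separation therefore does not bear on a difference between the groups. Shares of a whole cannot move independently, and with 3 libraries against 3 an exact two-sided permutation test cannot give a p below 0.1.

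**Figure D4:**
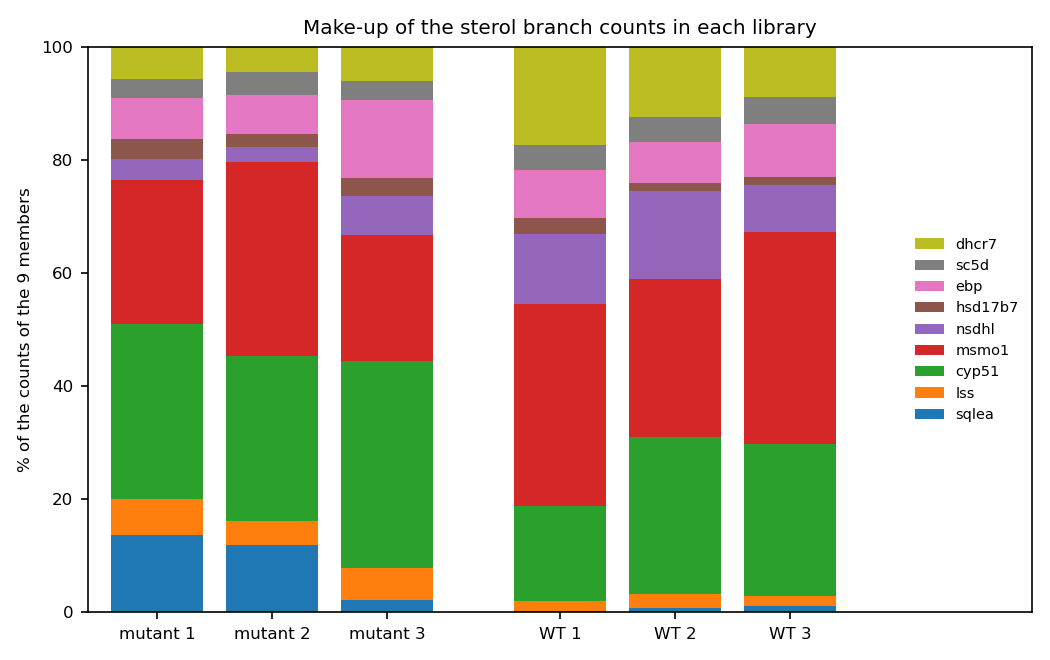
Share of each member in the summed counts of the 9 members, in percent, for the 3 mutant and 3 WT libraries. The share of sqlea is 13.6%, 11.8% and 2.24% in mutant libraries 1 to 3 and at most 1.05% in WT libraries; segments compare a gene between libraries, not genes with each other, since counts were not divided by transcript length.

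Other genes listed with the branch, not all of them shown here to act in it, and genes listed with the steps before squalene were described from fixed lists. Of 4 other sterol branch genes in the table, 3 passed the filter, all with a positive log2 fold change. EdgeR called 0 of them, beside 0.116% of all genes higher. At an unadjusted p under 0.05, 1 was higher, ebpl, beside 10.8% of all genes. Their median was 1.09. The gene ebpl, related in sequence to ebp, stood at 16.9, 15.3 and 11.1 CPM in mutant libraries, against 3.12, 5.34 and 7.48 CPM in WT libraries. Its groups did not overlap, and its log2 fold change was 1.44 ± 0.37 (SE, edgeR adjusted p = 0.125). The reductase tm7sf2, which acts between cyp51 and msmo1, had 1.09 (edgeR adjusted p = 0.464). For lbr, whose product is a lamin B receptor with the same reductase activity, it was 0.42 (edgeR adjusted p = 0.712). Groups overlapped for each under TMM. With total counts those of tm7sf2 did not overlap, with the mutants above, beside 11.6% of all genes, while those of lbr did. Under that scaling the median of all genes in mutant library 3 was itself shifted by 1.91 on the log2 scale.

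Of the mevalonate branch list, 11 of 11 genes in the table passed the filter, 10 with a positive log2 fold change and a median of 2.37. The 1 with a negative value was ggps1 (-0.20), whose product does not lead to squalene. EdgeR called 0 of the 11, beside 0.116% of all genes higher. At an unadjusted p under 0.05, 8 were higher, beside 10.8% of all genes. The largest log2 fold changes were those of the synthase hmgcs1, at 5.85, the synthase of farnesyl diphosphate fdps, at 5.09, and the decarboxylase mvda, at 4.84 (edgeR adjusted p between 0.0683 and 0.0914). The enzyme that makes squalene itself, fdft1, stood at 29.2, 27.5 and 2.296 CPM in mutant libraries, against 3.07, 2.88 and 5.40 CPM in WT libraries. Its mutant library 3 lay below all WT libraries under TMM, and its log2 fold change was 2.37 ± 0.87 (edgeR adjusted p = 0.221). With total counts its groups did not overlap, with the mutants above, beside 11.6% of all genes. Mutant library 3 was then at 6.77 CPM, against at most 3.87 CPM in WT libraries. The median of all genes in that library was itself shifted by 1.91 on the log2 scale. Without mutant library 3, edgeR called 2 of the 11 mevalonate genes higher, hmgcs1 and fdps, beside 0.0921% of all genes.

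**Figure D5:**
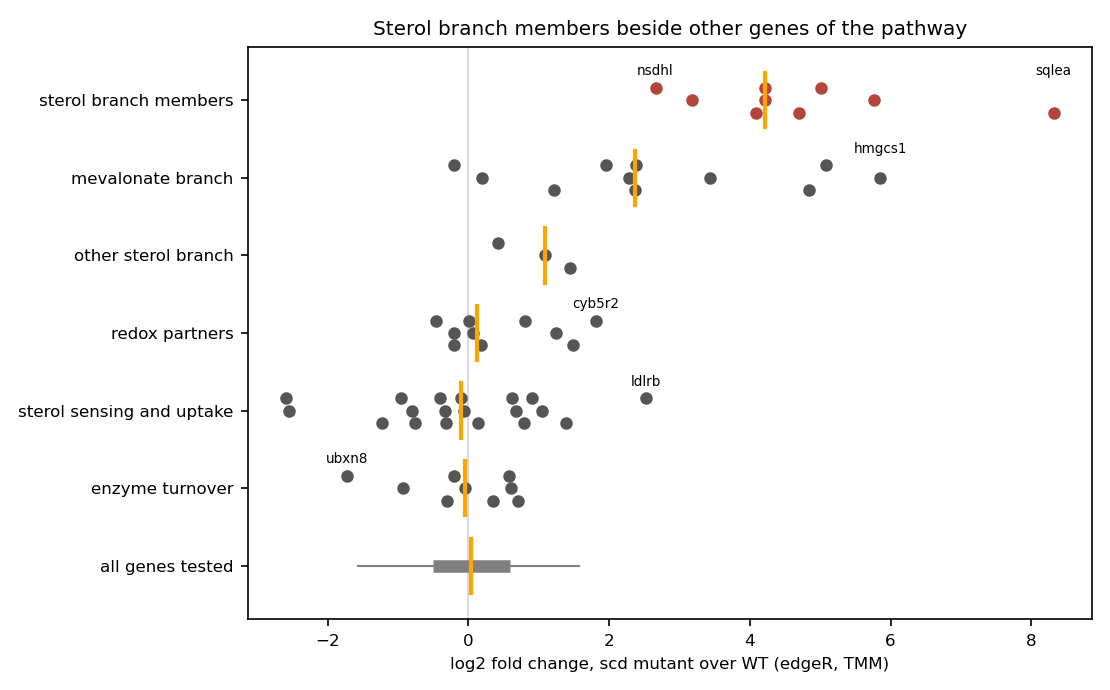
Log2 fold change, mutant over WT (edgeR with TMM), of the sterol branch members and of genes in 5 other lists of the pathway; each point is a gene, orange bars are list medians, and the bottom row gives all 12889 genes as the middle 50% (thick line) and the range from the 5th to the 95th percentile (thin line). The members span 2.66 to 8.32, beyond the 95th percentile of 1.58.

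The proteins that pass electrons to the branch are here cytochrome b5, its reductases and P450 reductases. The list also holds the progesterone receptor membrane components. Transcripts of this list differed in direction. Of 10 that passed the filter, 7 had a positive log2 fold change and the median was 0.12. EdgeR called 0, beside 0.116% of all genes higher and 0.124% lower. The cytochrome cyb5b stood at 63.6, 70.9 and 53.7 CPM in mutant libraries, against 28.4, 17.3 and 21.4 CPM in WT libraries, with no overlap (log2 fold change 1.49 ± 0.29, SE, edgeR adjusted p = 0.0810). The reductases cyb5r2 and cyb5r4 had log2 fold changes of 1.81 (adjusted p = 0.157) and 1.25 (adjusted p = 0.273).

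Among 19 measured genes of sterol sensing, uptake and export, 8 had a positive log2 fold change and the median was -0.10. EdgeR called 0, beside 0.116% of all genes higher and 0.124% lower. The transcript of srebf2, which encodes SREBP2, had a log2 fold change of -0.06 ± 0.60 (SE, edgeR adjusted p = 0.964). The receptor genes ldlra and ldlrb, whose products take up low-density lipoprotein, lay on opposite sides. The log2 fold change of ldlra was -2.54 ± 0.62 and that of ldlrb 2.52 ± 0.68 (edgeR adjusted p = 0.112 and 0.132). Neither overlapped between the groups, beside 12.8% of all genes lower and 15.1% higher without overlap. The cholesterol exporter abca1a had a log2 fold change of -2.59 ± 0.78 (adjusted p = 0.157).

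The genes outside the members with the pattern most like theirs were sought among 8603 genes with a mean log2 CPM above 1. Likeness was the mean absolute difference, over the 6 libraries, between a gene's log2 CPM against its WT mean and the median of the members. The nearest was apoea, an apolipoprotein E gene, at 0.21, followed by mvda at 0.41, fdps at 0.47, adamts2, a procollagen-processing protease gene, at 0.57, and zgc:193690 at 0.62. On the same measure the members themselves lay between 0.10 (ebp) and 1.77 (sqlea). The level of apoea was 12.4, 15.0 and 3.67 CPM in mutant libraries, against 0.336, 0.367 and 1.07 CPM in WT libraries. Like the members, apoea was highest in mutant library 2 and, among WT libraries, in library 3, which follows from how it was chosen.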

How the data were processed

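The authors deposited whole-number read counts per gene, not normalized. Reads had been through Trimmomatic 0.36, STAR 2.7 and featureCounts 1.5.2, with genome build GRCz11, per the submitters' processing notes. Strand and multi-mapping settings are not stated there, so genes with close copies or overlapping neighbours are uncertain. The 1 row without a gene name (0.568% to 1.02% of counts) was left out. Counts were tested with edgeR 4.0.16 (R 4.3.3): filterByExpr, TMM scaling, robust quasi-likelihood test over all 12889 genes, Benjamini-Hochberg adjustment, called at an adjusted p under 0.05. For edgeR fits, SE is the absolute log2 fold change over the square root of F. For DESeq2 it is the SE that DESeq2 reports. Levels are counts per 1e6 TMM-scaled counts; levels of different genes were not compared, as lengths are not in the table. DESeq2 1.42.0 and limma 3.58.1 served as alternatives. The edgeR fit was also run on simulated counts, as a check of the code. The outcome is not given here and is not evidence on the members.

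The members and gene lists were chosen with earlier results of these data known. From each other list the 3 genes with the largest absolute log2 fold change were named, with srebf2, ldlra and fdft1, and the 5 genes nearest the members in pattern. The marker genes named singly, from the cholangiocyte, macrophage and enterocyte lists, were named after their values were seen. Alternatives were other scalings, filters, dispersions and tests, an oocyte covariate, the replicate number as a block, and each library left out. Total counts without mutant library 3 were added after seeing the data. One gene of the other sterol branch list is not reported here.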

Additional observations from a re-analysis of the deposited data

How the results depend on the processing

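All 171 log2 fold changes of members under 19 alternatives were positive, and 47 passed the threshold, where 0 did in the main fit. The alternatives refit the same libraries, whose groups did not overlap for any member under TMM or with total counts. Their signs were thus largely set in advance and are not 171 independent results. The count of members called higher was 1 with upper-quartile factors (lss), 5 without a filter beyond 1 count, 9 with total counts, 9 with DESeq2's Wald test, 9 with the oocyte covariate and mutant library 3 left out, and 9 with total counts and mutant library 3 left out. It was 0 in edgeR with DESeq2 size factors, with library sizes that left out marker lists, with a filter of 1 CPM in 3 libraries and with non-robust dispersion. Limma-voom and the oocyte covariate in all 6 libraries also gave 0. With 1 library left out it was 0 to 5, and 5 only without mutant library 3. No member was called lower under any of them. The median log2 fold change lay between 3.74 and 4.77 with 1 library left out, and it moved by less than the spread between replicates (0.997) under each alternative. With the replicate number as a block, edgeR called 0 members and the median was 4.18; same-numbered libraries deviated together with correlations of 0.298, -0.211 and 0.320, so the numbers were not taken as pairs. Depth limits the low WT counts, which begin at 2 for sqlea.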

Other observations

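Genes that act in the turnover of sterol enzymes in mammals, such as ubiquitin ligases of the endoplasmic reticulum and their partners, had no common direction. Of 9 measured, 4 had a positive log2 fold change and the median was -0.05. EdgeR called 0, beside 0.116% of all genes higher and 0.124% lower. Without overlap between the groups' CPM, 3 of the 9 were higher and 2, ubxn8 and march6, lower in the mutants, beside 15.1% higher and 12.8% lower of all genes. The ligase gene march6, whose mammalian product marks squalene epoxidase for destruction, stood at 31.1, 35.3 and 20.8 CPM in mutant libraries, against 48.8, 51.1 and 65.9 CPM in WT libraries. Its log2 fold change was -0.93 ± 0.30 (SE, edgeR adjusted p = 0.177), and with total counts its groups overlapped. The gene ubxn8 had a log2 fold change of -1.72 (adjusted p = 0.206) and nploc4 one of 0.70 (adjusted p = 0.271).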
